A study of Homo sapiens with 10 samples.

Results

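A set of 9 genes of the TGF-beta pathway was followed across A549 and A549/DDP cells, chosen by symbol from the 58037 gene identifiers of the expression tables: the ligands TGFB1 and TGFB2, the latent TGF-beta binding protein LTBP2, the receptors TGFBR1 and TGFBR2, the signalling factor SMAD3, the inhibitors SMAD7 and SKIL, and the secreted protein TGFBI. All 9 symbols were found. A549 is a human lung adenocarcinoma line, and A549/DDP is a derivative of it that resists cisplatin (DDP), which was given to the study by another laboratory. Both lines were grown in RPMI 1640 with 10% foetal bovine serum, and the labels name no drug added to the cultures that were sequenced. Each line is 1 line, so a difference between them cannot be told apart from a difference between any pair of separately kept sublines. Each line had 2 input libraries of poly(A) RNA, which give RNA levels, and 2 m6A-seq libraries, in which RNA fragments carrying N6-methyladenosine are pulled down with an antibody and peaks are called where they exceed the input. A second pair of A549 inputs carries the same labels with a full stop added to the title, and entered the comparison only as an alternative.

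TGF-beta ligands are secreted bound to a propeptide that keeps them latent, and latent TGF-beta binding proteins, integrins and thrombospondin take part in their storage and release in the matrix. The active ligand joins the type II receptor TGFBR2 with the type I receptor TGFBR1, which phosphorylates SMAD2 and SMAD3, and these enter the nucleus with SMAD4 and change the transcription of genes such as CCN2 and TGFBI. SMAD7 and SKIL oppose the signal and are themselves transcribed in response to it, and in lung epithelial cells the pathway is known for growth arrest, matrix production and loss of epithelial traits.

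The inputs held 29225501 to 35286514 expected counts on genes, and the libraries of the second A549 pair held 855034 and 982036, of which 73.9% to 75.2% were mitochondrial. Replicates differed by far more than counting error (chi-square of 91.3 per degree of freedom for A549 and 54.1 for A549/DDP), and no label says that they came from separate cultures, so p-values measure only the spread between these libraries. The sample titles name the A549/DDP inputs as resistant, while their cell line field reads A549. Epithelial markers summed to 3684 and 7921 TPM (a transcript level scaled for length and depth) in A549 and to 14741 and 14736 TPM in A549/DDP, and of the 5 markers KRT8, KRT18 and CDH1 rose. KRT19 had 29.4 and 41.1 CPM in A549 and 7.19 and 0 CPM in A549/DDP (CPM, counts scaled to library size, TMM-normalized), and EPCAM had 1.91 and 5.67 CPM against 2.50 and 4.73 CPM, and neither passed the test (edgeR, adjusted p = 0.221 and 0.974). Fibroblast markers summed to 10.1 and 5.36 TPM in A549 and to 22.0 and 3.48 TPM in A549/DDP, immune and endothelial markers each to under 1 TPM in every library, with CD3E at 0 counts throughout. CDKN2B, which lies in the region that A549 is known to have lost, had 123 counts in A549/DDP replicate 1 and 0 to 2 in the other 3 inputs. A549/DDP replicate 1 was therefore left out for each member called below, and the part of these markers in the results was not tested. A fit without 1 library leaves its line with 1 library, which is assumed to vary like the 2 of the other line, so all spread between replicates then comes from that other line.

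Of the 9 genes, 4 fell in A549/DDP, 1 rose and 4 did not pass an adjusted p of 0.05 (edgeR's quasi-likelihood test, p adjusted over 16406 genes by Benjamini-Hochberg). TGFB2, SMAD3, SMAD7 and SKIL fell and TGFBI rose. Over all genes tested, 14.9% were called in either direction, 8.00% lower and 6.85% higher. The median log2 fold change of A549/DDP over A549 was -0.57 over the 9 genes and -0.002 over all genes. In bulk RNA, fewer cells that express a gene and less RNA in each cell cannot be told apart. With so few libraries a line, groups without overlap are only described below, and their share over all genes was not counted.

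**Figure D1:**
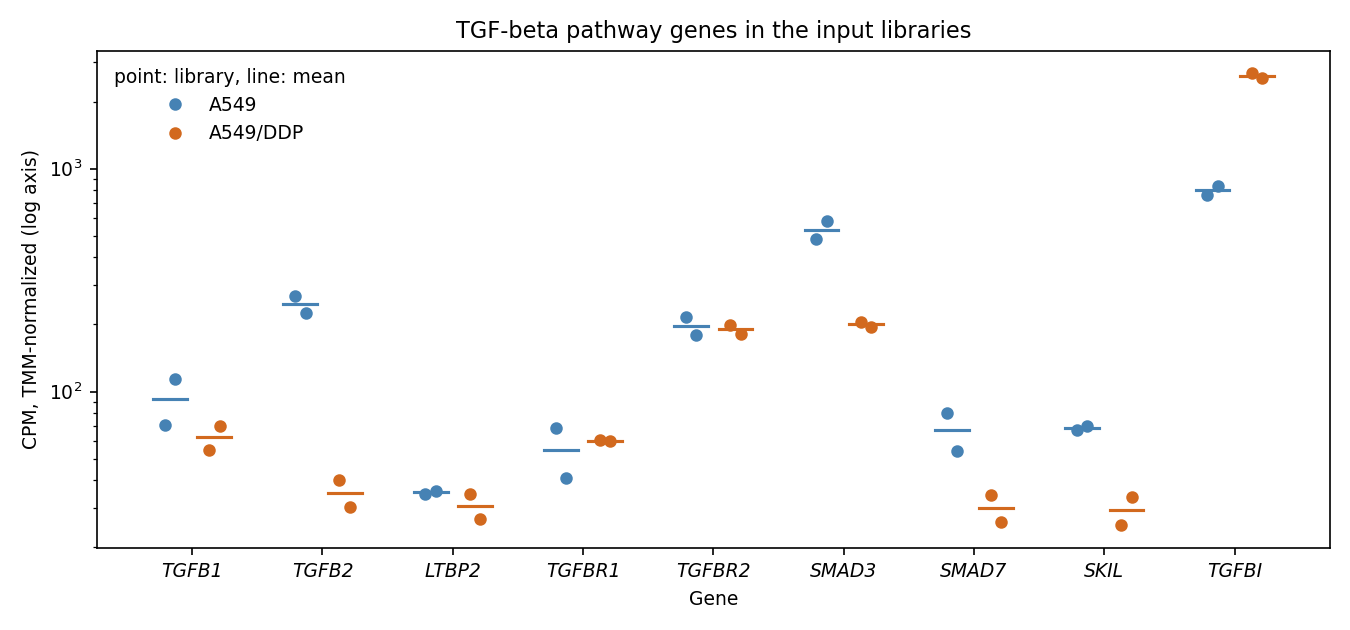
CPM (TMM-normalized, log axis) of the 9 genes in each input library, blue for A549 and orange for A549/DDP, with a line at the mean of 2 libraries. The points of TGFB2, SMAD3, SMAD7 and SKIL lie lower in A549/DDP without overlap, those of TGFBI lie higher, and those of TGFBR1 and TGFBR2 overlap.

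TGFB2, the ligand of the family with a known role in epithelial development and matrix production, fell most. Its level was 269 and 224 CPM in A549 and 39.9 and 30.4 CPM in A549/DDP. Both resistant libraries lay far below both parental ones. The log2 fold change was -2.81 ± 0.22 (SE), a 7.01-fold lower level, with an adjusted p of 0.00273 in edgeR. Without A549/DDP replicate 1 the log2 fold change was -3.04. The gene TGFB2-OT1 overlaps the 3′ part of TGFB2 and held 159 expected counts in A549/DDP replicate 2 and 0 in the other 3 inputs, against 1062 counts of TGFB2 in that library. The antisense gene TGFB2-AS1 had 20 and 27 counts in A549 and 0 in both A549/DDP libraries. Whether counting used strand is not given in the sources used here, which bears on the antisense gene. How reads were divided between TGFB2 and either overlapping gene cannot be checked.

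TGFB1, the most widely expressed ligand of the family, had 70.7 and 114 CPM in A549 and 54.7 and 69.8 CPM in A549/DDP. The highest resistant library lay just under the lowest parental one. The log2 fold change of -0.57 ± 0.28 (SE) did not pass the test (edgeR, adjusted p = 0.229). The value depended on the parental library used. Without A549 replicate 1 the log2 fold change was -0.88 (edgeR, adjusted p = 0.00546), and without A549 replicate 2 it was -0.20 (adjusted p = 0.773), both with 1 library left for A549. These are also the lowest and highest adjusted p over all alternatives.

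The balance of the ligands differed between the lines on the length-scaled level. TGFB2 stood at 5.44 and 2.80 times the TPM of TGFB1 in the A549 libraries. In A549/DDP the same ratio was 0.374 and 0.594. On this scale TGFB2 was the higher ligand RNA in both parental libraries and the lower one in both resistant libraries. In the second A549 pair, with 12 to 39 counts behind each value, the ratio was 1.86 and 1.33. The effective length that the authors' program used for TGFB2 was 1858, 1764, 4850 and 1936 bases in the order A549 replicates 1 and 2, A549/DDP replicates 1 and 2, so the value of 0.374 also carries a longer assumed transcript. A longer length lowers TPM at the same counts. Whether TGFB2 would lie below TGFB1 in A549/DDP replicate 1 at the length of the other libraries was not tested.

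**Figure D2:**
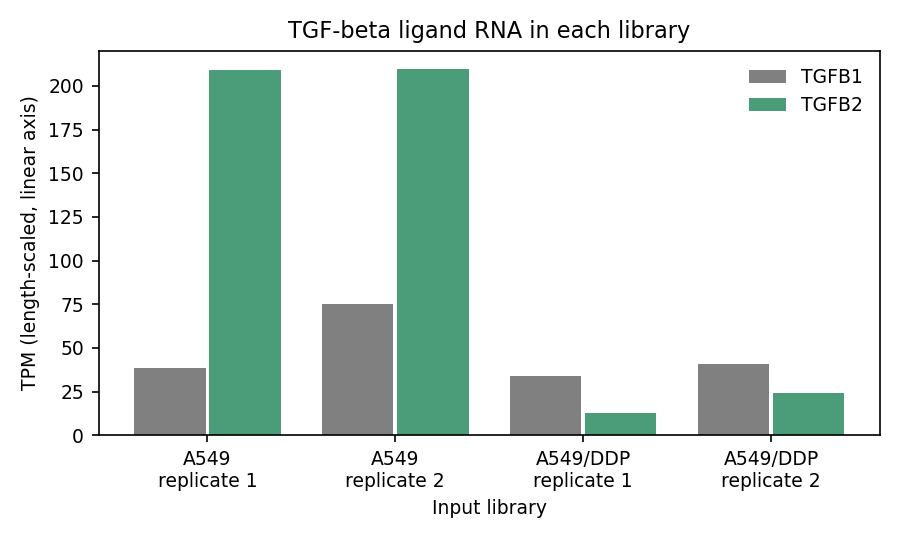
TPM (linear axis) of TGFB1 (grey) and TGFB2 (green) in the 4 input libraries. TGFB2 stands at 209 and 210 TPM in A549 and at 12.7 and 24.4 TPM in A549/DDP, below TGFB1 at 33.8 and 41.0 TPM. The 12.7 TPM rests on an effective length of 4850 bases, against 1764 to 1936 bases in the other libraries shown.

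LTBP2, a matrix protein of the latent TGF-beta binding family that, unlike its relatives, does not bind the latent ligand, had 34.8 and 35.8 CPM in A549. In A549/DDP it had 34.8 and 26.7 CPM. The highest resistant library lay just under the lowest parental one, and the log2 fold change of -0.20 ± 0.27 (SE) did not pass (edgeR, adjusted p = 0.685). On the TPM scale LTBP2 stood at 6.46 and 7.17 in A549 and at 21.0 and 7.71 in A549/DDP, the opposite order, with an effective length of 7802 and 8241 bases in A549 against 2549 and 5356 bases in A549/DDP.

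The receptors showed no difference that passed the test. TGFBR1, the type I receptor kinase, had 68.5 and 41.0 CPM in A549 and 60.4 and 59.7 CPM in A549/DDP, so both resistant values lay between the parental ones (log2 fold change 0.13 ± 0.29, SE; edgeR, adjusted p = 0.819). TGFBR2, the type II receptor that binds the ligand, had 215 and 178 CPM in A549 and 199 and 181 CPM in A549/DDP. Here too both resistant values lay between the parental ones (log2 fold change -0.05 ± 0.18, SE; edgeR, adjusted p = 0.896).

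SMAD3, the receptor-activated factor that binds DNA, had 482 and 582 CPM in A549 and 205 and 195 CPM in A549/DDP. The groups lay far apart and both resistant libraries were close to each other. The log2 fold change was -1.41 ± 0.17 (SE), a 2.66-fold lower level, with an adjusted p of 0.00664 in edgeR, and -1.47 without A549/DDP replicate 1. With the shallow second A549 pair in place of the first, the log2 fold change of SMAD3 was -0.03 (adjusted p = 0.937, range over alternatives 5.98e-16 to 0.937), while the median of all genes in that fit was 0.80.

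SMAD7, the inhibitory SMAD that competes for the receptor and recruits ubiquitin ligases to it, had 80.3 and 53.9 CPM in A549. In A549/DDP it had 34.1 and 25.8 CPM. All resistant values lay below the parental ones, and the log2 fold change of -1.16 ± 0.29 (SE) passed narrowly (edgeR, adjusted p = 0.0484). The call was lost without A549 replicate 1 (adjusted p = 0.0934), without A549/DDP replicate 1 (0.0547) and without A549/DDP replicate 2 (0.140), within a range of 0.00027 to 0.435 over all alternatives, and the direction was the same in each of the 14.

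SKIL, also called SnoN, a corepressor that binds SMAD complexes, had 67.1 and 70.2 CPM in A549 and 25.1 and 33.5 CPM in A549/DDP. The resistant libraries lay below the parental ones without overlap. The log2 fold change was -1.23 ± 0.24 (SE), with an adjusted p of 0.0245 in edgeR. Without A549/DDP replicate 1 it was -1.06 with an adjusted p of 0.0878, within a range of 5.09e-05 to 0.133 over all alternatives.

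TGFBI, a secreted matrix protein first found as a TGF-beta induced transcript, went the other way. It had 764 and 836 CPM in A549 and 2681 and 2561 CPM in A549/DDP. Both resistant libraries lay above both parental ones by a wide margin. The log2 fold change was 1.71 ± 0.14 (SE), a 3.28-fold higher level (edgeR, adjusted p = 0.00297), and 1.66 without A549/DDP replicate 1. TGFBI was at the 99.7th percentile of mean CPM among the genes tested.

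Per length, the order of the 9 genes changed at the top. In A549, SMAD3 (532 ± 123 TPM, SD, n = 2) and TGFBI (505 ± 84.9) overlapped, and TGFB2 (209 ± 0.41) came next, above TGFBR2 (67.3 ± 2.53). TGFBR2, TGFB1, SMAD7 and SKIL overlapped with their neighbours in that order, and TGFBR1 (26.2 ± 11.9) and LTBP2 (6.82 ± 0.50) lay below. In A549/DDP, TGFBI (1640 ± 26.3) stood alone, followed by SMAD3 (158 ± 10.5) and TGFBR2 (65.5 ± 3.80). TGFB1, TGFBR1 and SMAD7 overlapped with their neighbours there, and so did SKIL, TGFB2 (18.5 ± 8.27) and LTBP2 (14.4 ± 9.40) at the foot of the order. By mean TPM TGFB2 went from the third place to the eighth, a place that was not separate from its neighbours. In A549/DDP replicate 1 the effective length was 4850 bases for TGFB2 and 2549 bases for LTBP2. Their places in that line therefore also depend on the assumed lengths.

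The second A549 pair gave 0 to 47 counts for each of the 9 genes, too few for levels of the weaker ones. TGFBI had 37 and 47 counts there, TGFB2 21 and 39, SMAD3 22 and 27, and LTBP2 0 and 3. With this pair in place of the first, TGFB2 (log2 fold change -2.82), SKIL (-2.66) and TGFBI (2.91) passed in the same direction, SMAD3 and SMAD7 did not pass, and TGFBR2 was called higher at 1.05 (adjusted p = 0.0188, range over alternatives 0.0188 to 0.992), beside the median of 0.80 over all genes in that fit.

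The 250 bases before the RefSeq start of the genes that changed are shown (GRCh38.p14, 5′ to 3′ on the gene's strand), because these genes are transcribed in response to SMADs or encode the ligand and factor themselves. Capitals mark CAGAC, the core of the SMAD-binding element, or its reverse complement GTCTG. The windows are chr1:218345086-218345335 (plus strand) for TGFB2, chr15:67065352-67065601 (plus) for SMAD3, chr18:48950966-48951215 (minus) for SMAD7, chr3:170357465-170357714 (plus) for SKIL and chr5:136028738-136028987 (plus) for TGFBI.
TGFB2: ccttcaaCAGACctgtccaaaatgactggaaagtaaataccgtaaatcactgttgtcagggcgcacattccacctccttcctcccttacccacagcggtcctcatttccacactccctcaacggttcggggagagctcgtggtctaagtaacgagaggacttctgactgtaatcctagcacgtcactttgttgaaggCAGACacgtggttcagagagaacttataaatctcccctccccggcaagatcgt
SMAD3: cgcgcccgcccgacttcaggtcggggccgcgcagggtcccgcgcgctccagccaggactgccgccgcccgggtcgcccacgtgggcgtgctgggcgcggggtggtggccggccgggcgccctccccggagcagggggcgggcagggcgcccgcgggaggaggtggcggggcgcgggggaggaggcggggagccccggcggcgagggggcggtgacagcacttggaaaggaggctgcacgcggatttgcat
SMAD7: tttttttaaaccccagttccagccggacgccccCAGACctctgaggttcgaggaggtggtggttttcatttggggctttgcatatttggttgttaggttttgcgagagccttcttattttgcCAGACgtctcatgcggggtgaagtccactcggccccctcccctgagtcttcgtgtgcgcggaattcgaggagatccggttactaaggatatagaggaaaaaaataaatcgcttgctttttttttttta
SKIL: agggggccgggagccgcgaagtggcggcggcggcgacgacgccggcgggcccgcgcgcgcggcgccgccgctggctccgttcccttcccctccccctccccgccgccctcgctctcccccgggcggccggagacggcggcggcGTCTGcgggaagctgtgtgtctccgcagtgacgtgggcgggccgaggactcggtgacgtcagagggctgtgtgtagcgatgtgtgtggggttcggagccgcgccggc
TGFBI: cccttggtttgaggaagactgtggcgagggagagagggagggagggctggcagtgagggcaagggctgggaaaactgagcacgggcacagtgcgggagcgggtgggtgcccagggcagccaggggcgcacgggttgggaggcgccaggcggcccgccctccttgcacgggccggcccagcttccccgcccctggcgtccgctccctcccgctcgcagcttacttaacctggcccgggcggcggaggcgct

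Both strands were searched in all 9 windows. TGFB2 held CAGAC 243 to 239 and 53 to 49 bases before its start, SMAD7 held it 217 to 213 and 128 to 124 bases before its start, and SKIL held GTCTG 107 to 103 bases before its start. The other 6 windows, those of SMAD3 and TGFBI among them, held neither. Of 35116 windows of the same length in RefSeq, 38.0% held the motif and 8.84% held 2 or more. The 3 of 9 genes with a match are a share near that of all promoters, and a match is a description of letters, not of binding.

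The other genes of the pathway were read from the same fit. Of 53 genes on the list, 50 were tested, and ACVRL1, SMAD9 and CDKN2B were not. There were 3 that rose and 10 that fell, against 6.85% and 8.00% of all genes, and 37 did not pass. Their median log2 fold change was -0.30. With both A549 pairs in the fit, 1 gene higher (ID1) and 3 lower (CCN2, COL4A1 and TPM1) passed. No further ligand (0 of 3), receptor or receptor adaptor (0 of 7) or signalling SMAD (0 of 4) passed the test in edgeR. Of these 14 genes, 2 (SMAD2 and INHBA) had an unadjusted p under 0.05 in edgeR, beside 5360 of all 16406 genes. INHBA is named outside the naming rule. DESeq2 called the same 2 lower, beside 2270 of the 22792 genes it fitted.

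**Figure D3:**
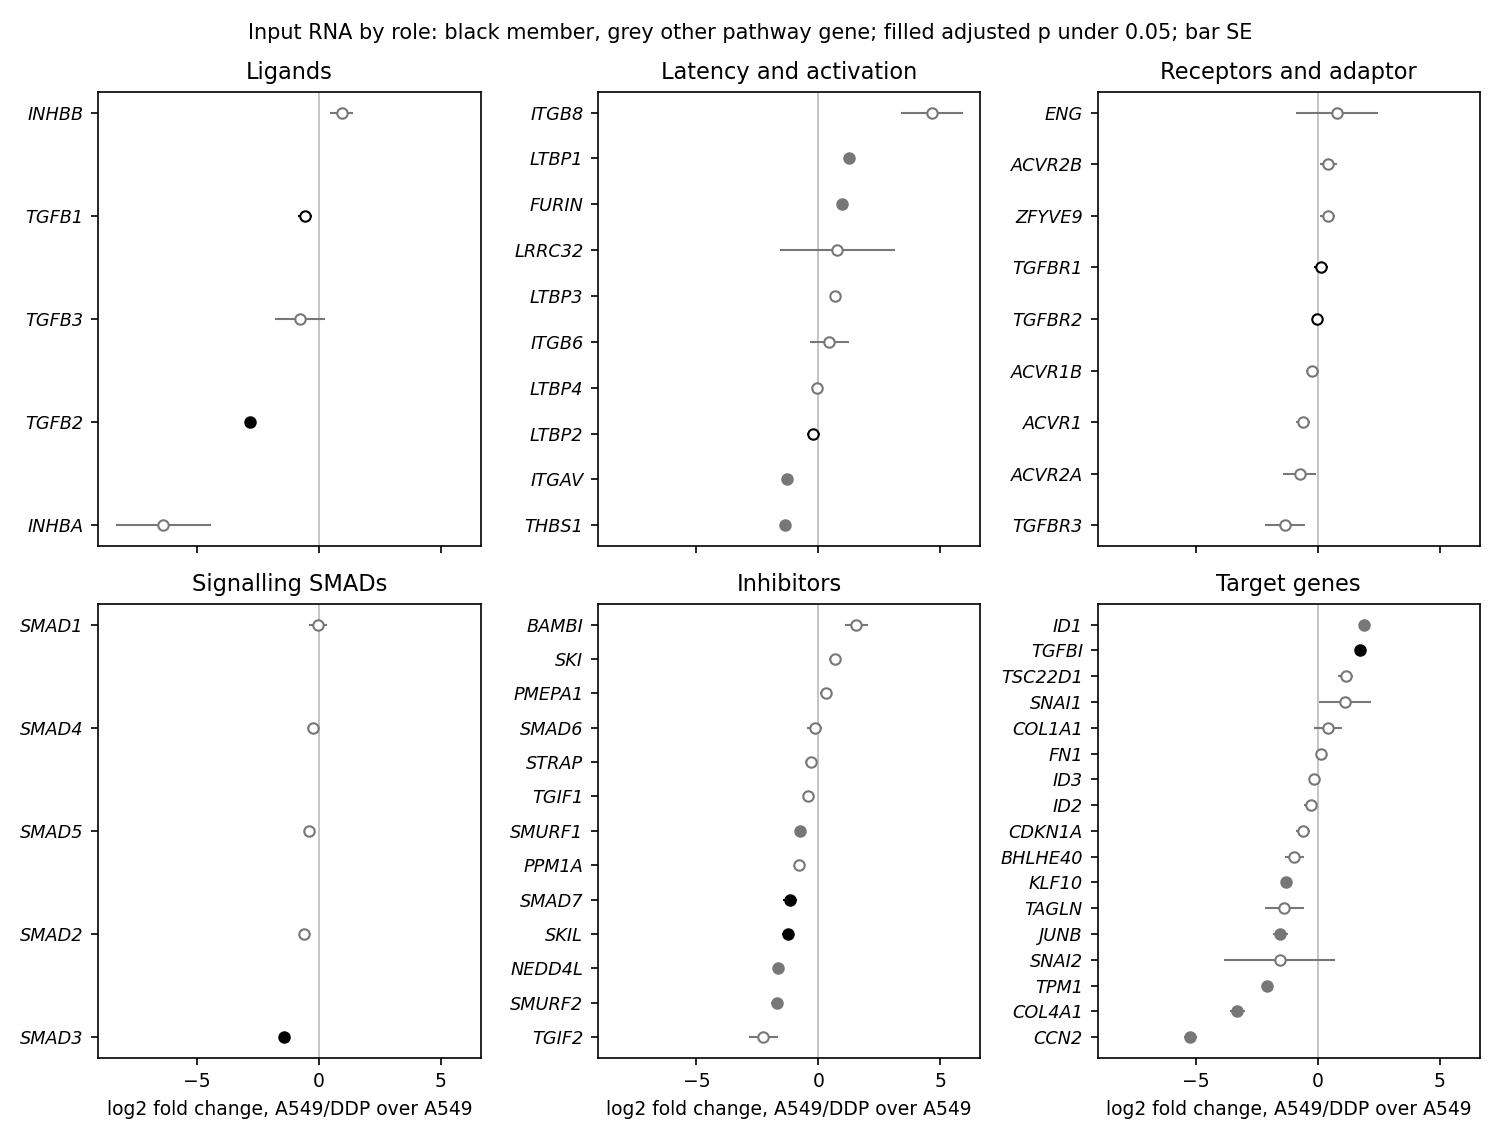
log2 fold change of A549/DDP over A549 with its SE, for the 9 genes (black) and the other pathway genes tested (grey), by role, with filled points for adjusted p under 0.05. CCN2, COL4A1 and TGFB2 lie farthest to the left among filled points and ID1 and TGFBI farthest to the right. INHBA had 3 and 0 counts in A549/DDP, and its fitted value depends on the small count that the fit adds.

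Among genes of latency and activation, 2 of 9 rose and 2 fell, beside 6.85% and 8.00% of all genes. LTBP1, which anchors the latent ligand to the matrix, had 31.3 and 30.7 CPM in A549 and 65.2 and 84.0 CPM in A549/DDP (log2 fold change 1.27; edgeR, adjusted p = 0.0195; 0.0755 without A549/DDP replicate 2, range over alternatives 5.27e-05 to 0.367). FURIN, the protease that cleaves the propeptide, had 95.3 and 94.9 CPM in A549 and 197 and 177 CPM in A549/DDP (log2 fold change 0.98; edgeR, adjusted p = 0.0161; 0.0998 and 0.0557 without A549/DDP replicates 1 and 2, range 1.17e-05 to 0.124). Neither pair of groups overlapped, a trait whose share over all genes was not counted. THBS1, thrombospondin 1, an activator of the latent ligand, had 222 and 175 CPM against 81.5 and 73.7 CPM (log2 fold change -1.36; edgeR, adjusted p = 0.0104; 0.0843 with limma on TPM, range 1.47e-08 to 0.147). ITGAV, the alpha subunit of the integrins that release the ligand, had 306 and 253 CPM against 114 and 114 CPM (log2 fold change -1.30; edgeR, adjusted p = 0.009). Both lay lower in each resistant library than in either parental one.

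Of the partners of SMAD3, SMAD2 had 242 and 197 CPM in A549 and 149 and 141 CPM in A549/DDP, with a log2 fold change of -0.60 that did not pass in edgeR (adjusted p = 0.0748) and passed in 4 of 14 alternatives. SMAD4, the shared partner of receptor-activated SMADs, had 56.2 and 51.7 CPM against 43.5 and 47.4 CPM (log2 fold change -0.25; edgeR, adjusted p = 0.494). The groups did not overlap for either gene, a trait whose share over all genes was not counted and which is no call. TGFBR3, the betaglycan co-receptor that presents TGF-beta 2, had 7.33 and 31.5 CPM in A549 and 11.2 and 4.07 CPM in A549/DDP, so that the groups overlapped (log2 fold change -1.35; edgeR, adjusted p = 0.323). A549 replicate 2 set that direction, since without it the log2 fold change was 0.05, and without A549 replicate 1 it was -2.06 (adjusted p = 0.00612, range 0.00612 to 0.992), each with 1 library left for A549.

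Among the 11 other inhibitors 0 rose and 3 fell in edgeR, beside 6.85% and 8.00% of all genes. At an unadjusted p under 0.05 in edgeR, 2 were higher and 5 lower, beside 5360 of all 16406 genes in either direction. DESeq2 called 1 higher and 5 lower, beside 2059 and 2270 of the 22792 genes it fitted. The 3 that fell are all ubiquitin ligases of the NEDD4 family that act on the receptors or SMADs. SMURF2 had 84.1 and 66.0 CPM in A549 and 24.9 and 22.0 CPM in A549/DDP (log2 fold change -1.68; edgeR, adjusted p = 0.0104). With the second A549 pair in place of the first it was -0.33 (adjusted p = 0.741, range 3.67e-08 to 0.741). NEDD4L had 297 and 216 CPM against 85.6 and 77.6 CPM (log2 fold change -1.65; edgeR, adjusted p = 0.00789). SMURF1 had 153 and 145 CPM against 95.6 and 80.8 CPM (log2 fold change -0.76; edgeR, adjusted p = 0.0425). None of the 3 overlapped between the lines, a trait whose share over all genes was not counted. The call of SMURF1 was lost without A549/DDP replicate 1 (adjusted p = 0.112) and without A549/DDP replicate 2 (0.245; range 0.00362 to 0.894).

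Of 16 target genes tested, 1 rose and 5 fell, beside 6.85% and 8.00% of all genes. CCN2, connective tissue growth factor, which YAP also induces, had 498 and 339 CPM against 12.2 and 10.1 CPM (log2 fold change -5.23 ± 0.28, SE; edgeR, adjusted p = 0.00156). COL4A1, a basement membrane collagen chain, had 700 and 399 CPM against 61.7 and 49.4 CPM (log2 fold change -3.31 ± 0.32, SE; edgeR, adjusted p = 0.00377). Both were lower in each resistant library than in either parental one, and both still passed without A549/DDP replicate 1. ID1, an inhibitor of bHLH factors that BMP signalling also induces, had 36.9 and 45.1 CPM in A549 and 149 and 155 CPM in A549/DDP (log2 fold change 1.89 ± 0.20, SE; edgeR, adjusted p = 0.0046). The actin-binding TPM1 (log2 fold change -2.07) and the transcription factors JUNB (-1.54) and KLF10 (-1.29) also fell. JUNB and KLF10 fall outside the naming rule and were chosen after their values were seen. Without A549/DDP replicate 1 the adjusted p of KLF10 was 0.0503, and without A549/DDP replicate 2 that of JUNB was 0.0603, within ranges of 3.05e-08 to 0.0872 and 3.48e-10 to 0.414 over all alternatives. TGFBI and ID1 thus moved in the opposite direction to these 5 targets between the same libraries.

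The m6A lists give called stretches with a p-value and no level, so they were compared by presence. They held 26320 and 14576 peaks in A549 and 27244 and 10661 peaks in A549/DDP, and the longer list of each line is replicate 1. Among the 9 genes, a peak was listed for 7 and 5 in replicates 1 and 2 of A549, and for 7 and 4 in those of A549/DDP. The matching shares of all genes tested for RNA were 43.7%, 30.6%, 40.7% and 22.2%. Those shares include genes of any RNA level, whereas the 9 genes lay at the 63.9th percentile of mean CPM or above. TGFB1, SMAD3, SMAD7 and SKIL had a peak in all 4 lists, as did 13.9% of all genes tested and 25.8% of the 5927 genes with a mean of at least 33.0 CPM, the lowest mean among the 9. Overlapping peaks merged into 29 regions at the 9 genes, where peaks may be joined through another that overlaps both. A peak lay in 8 of these regions in all 4 lists, in 1 region in both A549 lists and in neither A549/DDP list, and in 0 regions the other way round. Of 38075 regions merged in the same way at all genes tested, 8.61% were in all 4 lists, 6.07% in both A549 lists alone and 3.13% in both A549/DDP lists alone, so 1 of 29 is no more than the share among all regions. The shares of regions were not matched for RNA level, so 8 of 29 beside 8.61% is not read as a trait of the 9 genes.

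**Figure D4:**
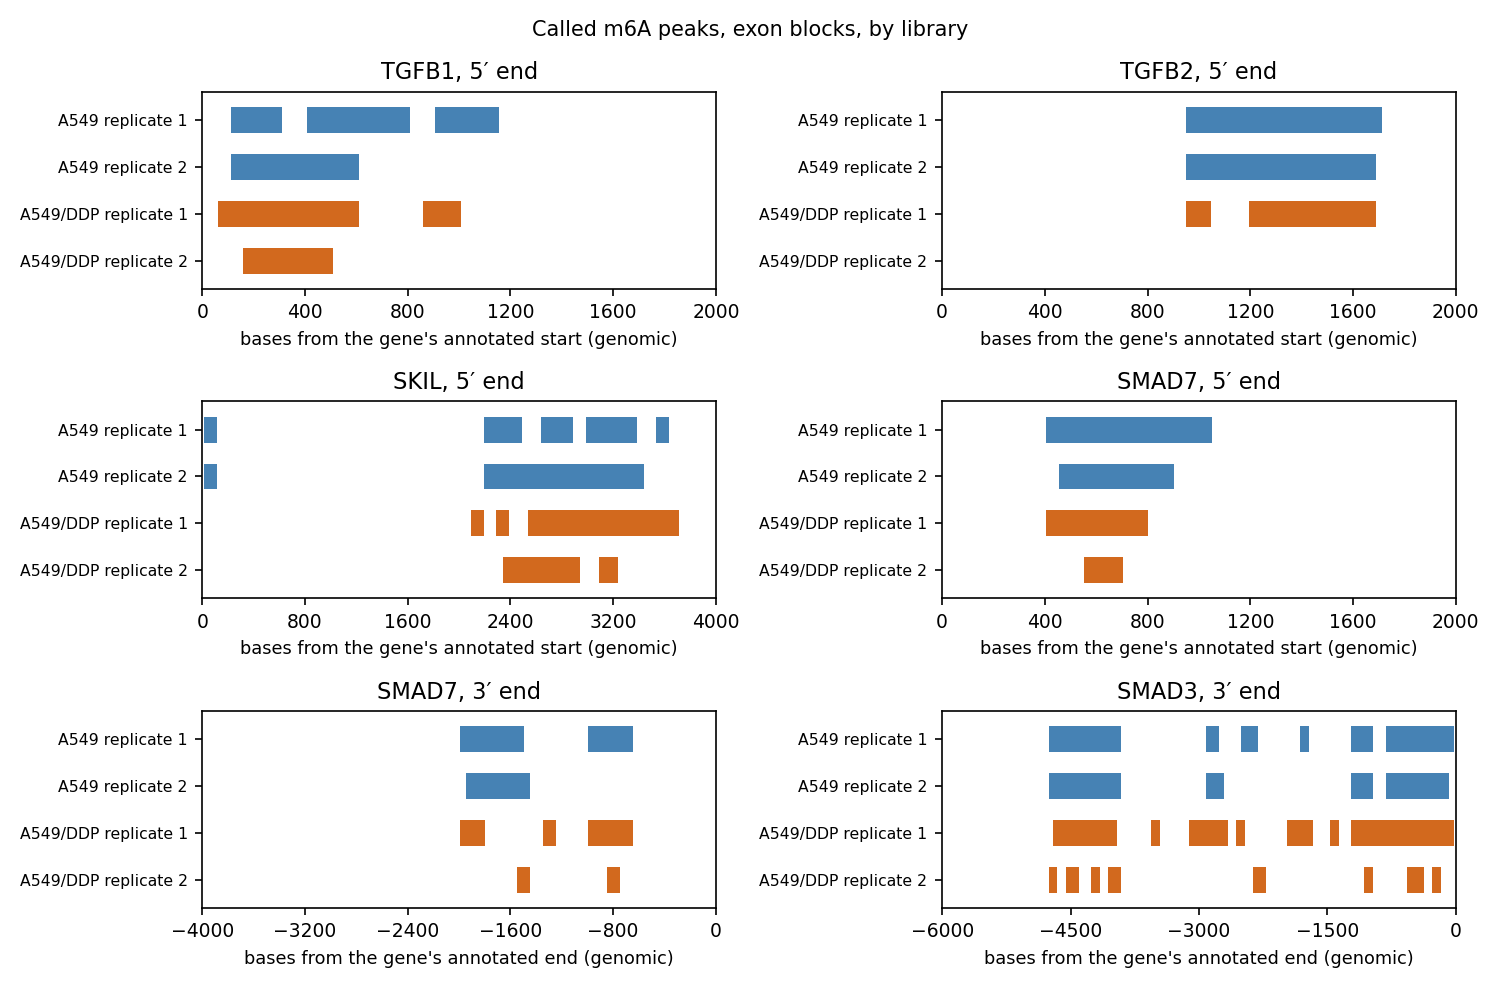
Exon blocks of called m6A peaks at the ends of 5 genes, 1 row for each m6A-seq library, blue for A549 and orange for A549/DDP, against the distance in genomic bases from the annotated start or end. The short block within 113 bases of the SKIL start appears in both A549 rows only, and the TGFB2 row of A549/DDP replicate 2 is empty.

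SMAD3 carried the most peaks, with 9 and 5 in A549 and 9 and 11 in A549/DDP, in 10 regions. Of these, 3 were in all 4 lists: one began 410 bases after the gene start (chr15:67066012-67078035, spanning an intron), one lay 3908 to 7757 bases from the gene end (chr15:67187412-67191261) and one ran to within 24 bases of the end (chr15:67193950-67195145). The peaks covered 3394 and 2394 bases in A549 and 3644 and 1753 bases in A549/DDP, so the library with the most peaks at SMAD3 had the fewest bases covered. SMAD7 had 3 and 2 peaks in A549 and 4 and 3 in A549/DDP. Its regions 404 to 1052 bases after the start (chr18:48949913-48950561) and 1446 to 1995 bases from the end (chr18:48921299-48921848) were in all 4 lists, the latter with A549/DDP peaks joined through those of A549.

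SKIL had 6 and 3 peaks in A549 and 5 and 3 in A549/DDP. Its regions beginning 2091 bases after the start (chr3:170359806-170381316) and lying 4353 to 6571 bases from the end (chr3:170390278-170392496) were in all 4 lists. The region 13 to 113 bases after the start (chr3:170357728-170357828) was called in both A549 lists, with deposited p-values of 3e-07 and 0.0012, and in neither A549/DDP list. Its first 30 bases, chr3:170357728-170357757 on the plus strand from the RefSeq promoter table, are shown because this is the only region of the 9 genes that separated the lines, and they hold no GGAC, a common form of the m6A consensus.
SKIL region, first bases: gcgggcgagcggcgacggcggcggcggcgg
The rest of this region was not read here. SKIL RNA was 2.35-fold lower in A549/DDP, and its part in the missing peak was not tested. At a deposited p of 1e-05 or less, and in lists of equal length, the region no longer separated the lines.

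TGFB1 had 3 and 1 peaks in A549 and 2 and 1 in A549/DDP, and the region 61 to 808 bases after its start (chr19:41353114-41353861) was in all 4 lists. TGFB2 had 3 peaks in each A549 list, and 5 and 0 in replicates 1 and 2 of A549/DDP, in 2 regions, one that began 949 bases after its start (chr1:218346285-218405312) and one 2525 to 7124 bases from its end (chr1:218437495-218442094). Its RNA stood at 39.9 CPM in the input numbered as the resistant library with peaks and at 30.4 CPM in the other. The receptors and LTBP2 had peaks in 1 or 2 lists: TGFBR2 had 3 in A549 replicate 1 and 1 in A549/DDP replicate 1, TGFBR1 had 2 in A549/DDP replicate 1, and LTBP2 had 2 in A549 replicate 1. No such peak appeared in the shorter list of either line.

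TGFBI had no peak in any list, although its RNA was the highest of the 9 by mean CPM. Of the 44 genes tested with a mean CPM at or above that of TGFBI (1710 CPM), 15 (34.1%) had no peak in any list, against 17.6% of the 5927 genes at or above the lowest of the 9. Among the other pathway genes, 13 of 53 had a peak in all 4 lists, 17 in 1 to 3 lists and 23 in none, beside the 13.9% of all genes tested and 25.8% of those at or above the lowest of the 9 with a peak in all 4. The target KLF10 (3, 4, 3 and 5 peaks) and the inhibitors SMAD6 (4, 3, 5 and 4) and SKI (4, 2, 3 and 6) were among the first and are named outside the naming rule, in the order A549 replicates 1 and 2, A549/DDP replicates 1 and 2. COL4A1 had none, and CCN2 had 1 in each A549 list and 0 in each A549/DDP list, where its RNA was 37.4-fold lower.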

How the data were processed

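The input tables deposited by the authors give each gene's expected counts with TPM and FPKM, in the layout of RSEM. The expected counts are estimates that are not normalized, and the TPM and FPKM values were scaled by the authors for length and depth. FPKM was not used. For each m6A-seq library the authors deposited 1 peak list, naming the gene, strand and blocks of each peak beside a p-value whose adjustment is not said. The submitters' processing notes name STAR, RSEM, bedtools and hg38. The peak caller is not given in the sources used here. Labels describe a stranded paired-end kit. For A549 m6A-seq the replicate numbers of the labels run opposite to the file names, and were used as the labels give them.

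Expected counts were rounded and tested with edgeR 4.0.16 (filterByExpr, TMM, glmQLFit and glmQLFTest, no block) in R 4.3.3 over the 4 inputs. Standard errors were computed from edgeR's F as |log2 fold change|/√F. DESeq2 1.42.0, limma 3.58.1 with trend on log2(TPM + 1) or log2(TPM + 0.1) with a mean TPM of at least 1, other filters and scaling, the second A549 pair and leaving out each library were alternatives. Of 58037 identifiers, 56948 were matched to a symbol through the tables given. Peaks were merged within a gene where blocks overlapped by 1 base or more on 1 strand, with 50% of the shorter peak, p-values at or below 1e-05 and lists of 10661 peaks by p-value (ties at random) as alternatives. Promoters and gene starts are from RefSeq (GRCh38.p14), where all 9 genes matched. Python 3.11.15 and matplotlib 3.10.9 were used. Pathway genes named are CCN2, SMAD2, SMAD4 and TGFBR3 and, in each role, up to 3 rises and 3 falls by log2 fold change among called genes. INHBA, JUNB, KLF10, SMAD6 and SKI were named after their values were seen. A gene of the pathway list is not reported here and is left out of its counts. The genes, lists and rules were chosen with earlier results of these data known. Depth counts expected counts on genes, and that of the m6A-seq libraries is unknown.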

Additional observations from a re-analysis of the deposited data

How the results depend on the processing

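The direction of TGFB2, SMAD3, SMAD7, SKIL and TGFBI was the same under all 14 alternatives, most of which refit the same libraries. With the second A549 pair in place of the first, SMAD3 stood at only -0.03. The calls of SMAD3 and SMAD7 were lost with the second pair and with both pairs, and that of SKIL with both pairs. Those of SMAD7 and SKIL were also lost in every limma fit. Of all genes, 2437 were called (1124 higher and 1313 lower). The counts were 4329 (2059 and 2270) with DESeq2, 4010 (1836 and 2174) without a filter beyond 1 count, 3614 (1746 higher) with at least 10 counts in every library, 1492 (665 and 827) and 1177 (510 and 667) with limma at a pseudocount of 1 and 0.1, 3758 (2371 higher) with the second A549 pair in place of the first and 677 (335 and 342) with both pairs. Limma without a filter called 0 genes, with 4519 at an unadjusted p under 0.05, so none of the 9 genes (4 at unadjusted p) and none of the other pathway genes (18) passed there. Leaving out each library gave 2052 to 3809 calls (788 to 1731 higher and 1164 to 2078 lower), most without A549 replicate 2. Of the 9 genes, 2 fell with limma at either pseudocount, 2 fell and 2 rose with the second pair, 1 fell with both pairs, and 2 to 4 fell when a library was left out, with 1 rise in each case. The count of 2 came without A549/DDP replicate 1. Other pathway genes higher were 7 with DESeq2, 6 without a filter, 6 with at least 10 counts, 5 with upper-quartile scaling, 10 with the second pair, 1 with both pairs and 2 to 7 with a library left out, and those lower were 16 without a filter, 3 with both pairs and 9 to 16 with a library left out. The second pair moved the median log2 fold change of all genes to 0.80, and the cause of the changed calls was not tested.

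Values that changed sign were those of LTBP2 (0.83, 0.90 and 0.83 in the limma fits at a pseudocount of 1, of 0.1 and without a filter, 1.30 with the second pair, 0.009 with both), TGFBR1 (-0.68 with the second pair, -0.35 with both, and -0.21 to 0.53 with a library left out, the lowest without A549 replicate 2), TGFBR2 (0.005 with upper-quartile scaling, 1.05 with the second pair, 0.25 with both, and -0.20 to 0.077 with a library left out, above 0 without A549 replicate 1 or A549/DDP replicate 2), SMAD4 (0.13) and SMURF1 (2.08, adjusted p = 0.00844, range 0.00362 to 0.894) with the second pair, and TGFBR3 (-2.27 to 0.047 with a library left out, the highest without A549 replicate 2). Deviations of same-numbered libraries from their line means correlated at 0.026, a value that cannot show whether they share a batch. With the replicate block, 3536 genes were called (2418 of them also without it), of the 9 genes 1 rose and 4 fell, and of the other pathway genes 6 rose and 13 fell.

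Peak counts depended on the threshold and list length. At a deposited p of 1e-05 or less, 12 regions were left at the 9 genes, 0 of them in every list and 0 in both A549 lists alone. Members with a peak were then 2, 1, 1 and 0 in A549 replicates 1 and 2 and A549/DDP replicates 1 and 2, and 0 in all 4. In lists of equal length 2 regions were in every list, 0 were in both A549 lists alone, and 2 genes had a peak in A549 replicate 1, 1 in A549/DDP replicate 1 and 1 in all 4. Leaving out a list gave 27 to 29 regions, 8 to 11 in every list used, 1 to 6 in A549 lists alone and 0 to 6 in A549/DDP lists alone, and 4 to 5 genes with a peak in every list. The 6 came without A549 replicate 2 and without A549/DDP replicate 2, the shorter list of each line. With 2 libraries a line and no depth for m6A-seq, an absent peak does not show absent m6A.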
